A study of Mus musculus with 2 samples.

Results

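The protocadherin alpha, beta and gamma clusters were examined as a stretch of mouse chromosome 18 from 37080001 to 38010000 (mm9, 1-based). The stretch was divided into 930 bins of 1 kb, out of 2246042 bins in the genome that held at least 1 read. Its bins were taken by position, with no threshold on read counts. Within it, the alpha cluster (Pcdha) was taken as 37090001 to 37350000 (260 bins), the beta cluster (Pcdhb) as 37400001 to 37700000 (300 bins) and the gamma cluster (Pcdhg) as 37800001 to 38000000 (200 bins). These borders are approximate, and the other bins lie before, between or after the clusters.

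Gene names and their order came from a RefSeq table whose build, GRCm38, is not that of the reads. It was used for names alone, and bins were not assigned to genes. The table lists 58 clustered protocadherin genes. The alpha cluster has 14, of which the 12 numbered genes come first and Pcdhac1 and Pcdhac2 last. The beta cluster has 22 genes. The gamma cluster also has 22, counting Pcdhgb8, which is listed as a transcribed pseudogene. Its 3 C-type genes, Pcdhgc3, Pcdhgc4 and Pcdhgc5, come last. In the order of the table Slc25a2, a mitochondrial carrier gene, and Taf7, which encodes a general transcription factor subunit, lie between the beta and gamma clusters. Zmat2, Hars2 and Hars lie before the alpha cluster, and Diaph1 and Hdac3 lie after the gamma cluster.

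Clustered protocadherins are cell adhesion proteins of the cadherin superfamily and are known chiefly from neurons, where different combinations of them mark individual cells. In the alpha and gamma clusters, a transcript joins a variable exon, which has its own promoter, to constant exons at the end of the cluster, whereas the beta genes have no constant exons. Promoter choice in neurons is known to involve the insulator protein CTCF and cohesin, and the C-type genes are regulated differently from the others. Acetylation of histone H3 marks active promoters and enhancers.

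The cells were Th2 cells, a class of helper T cell known for making interleukin 4, grown from CD4+CD62L+ spleen cells of C57BL/6 mice. Both groups had the same growth: anti-CD3/CD28 stimulation over 5 days together with 10 ng/ml IL-4 and 2 µg/ml anti-IFN-g, then 3 days of rest. In chromatin immunoprecipitation with sequencing (ChIP-seq), 1 library came from anti-H3KAc, which binds histone H3 acetylated on lysine, and 1 from polyclonal rabbit IgG, which measures the non-specific background. The cell label could not be set against marker genes, since no gene coordinates on mm9 were used, and in a mixed culture low acetylation in all cells cannot be told apart from acetylation in a few of them.

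Reads at the same position and strand were counted 1 time, which gave 19711169 distinct positions in H3KAc and 1897666 in IgG. Levels are distinct positions per 1000000 of the library (RPM) per kb. The H3KAc over IgG ratio therefore compares shares of 2 libraries, and a ratio of 1 is the genome average. With 1 library per group there is no replicate check and no p-value. The 95% intervals in parentheses cover counting error only and compare these libraries, not the conditions.

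Across the whole stretch H3KAc was not above the IgG background. The stretch held 6477 H3KAc reads, or 0.353 RPM per kb (0.345 to 0.362), and 803 IgG reads, or 0.455 RPM per kb (0.424 to 0.488). The ratio was 0.777 (0.722 to 0.837). In the stretch of 930 kb to the left it was 1.13 (1.06 to 1.21), and in that to the right 0.963 (0.911 to 1.02). The stretch as a whole was thus lower in the ratio than either side, by more than the counting error.

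Many bins of the clusters held no read in either library, and this lowers the level per kb without changing the ratio. Such bins numbered 142 of 930 (15.3%) in the stretch, against 36 in the left and 5 in the right flank of the same length. Counted over bins with a read, H3KAc was 0.417 RPM per kb (0.407 to 0.427) and IgG 0.537 (0.5005 to 0.575), against 0.445 for both over the covered genome. By this count H3KAc lay slightly below the genome average and IgG above it. Why these bins were empty was not tested.

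Windows of 930 kb tiled over the autosomes, with at least 75% of bins covered, gave a scale for these values. Over 2348 such windows the median ratio was 1.05, with a range of 0.623 to 2.03, and 55 windows (2.34%) lay below the 0.777 of the protocadherin stretch. In H3KAc per covered kb the stretch was near the middle, with 1207 windows (51.4%) below it. In IgG 1628 windows (69.3%) were below it. The stretch therefore stood near the low end of the windows in its ratio but not in its H3KAc level.

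**Figure D1:**
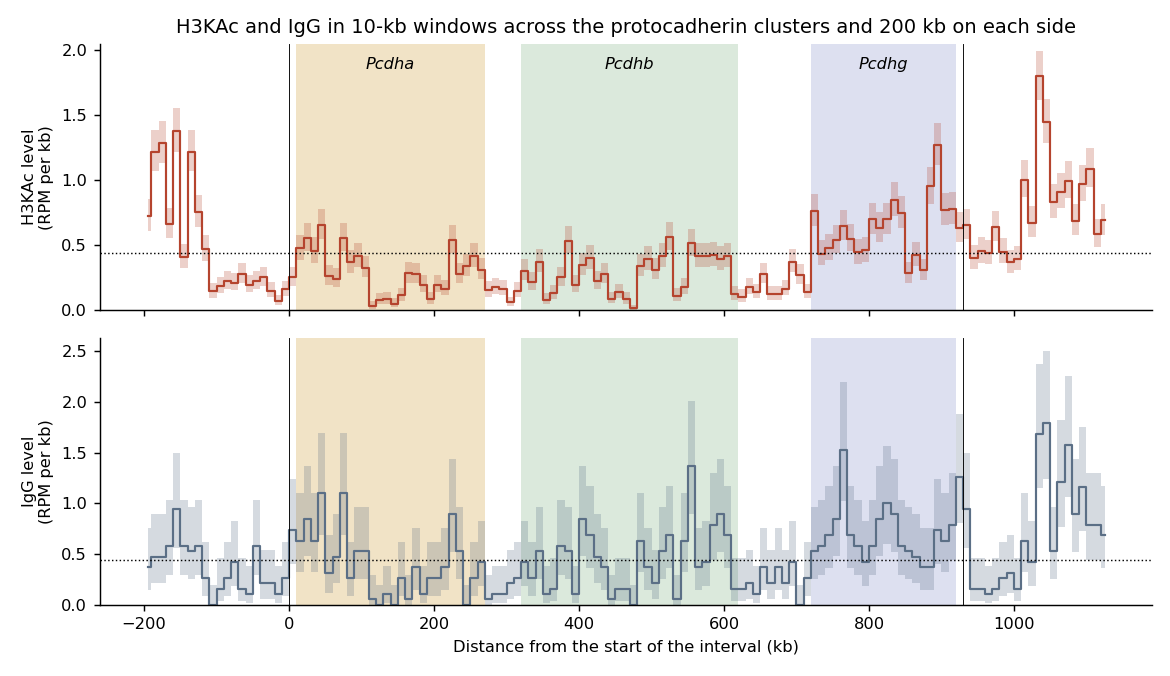
H3KAc (top) and IgG (bottom) in RPM per kb, in 10-kb windows, against the distance in kb from the start of the stretch. Lines are the level of 1 library each, pale bands the exact Poisson 95% interval, dotted lines the genome average of 0.445, vertical lines the ends of the stretch, and shading the 3 clusters. H3KAc was highest within the stretch in the right part of Pcdhg, at 1.27 RPM per kb, and higher still on both sides, up to 1.38 on the left and 1.80 on the right.

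The 3 clusters were not alike. Per kb with empty bins counted, the gamma cluster had more than 2 times the H3KAc level of the alpha and beta clusters, which were close to each other. Per covered kb, as given below, it had less than 2 times the level of either. The alpha cluster held 1540 H3KAc reads, or 0.300 RPM per kb (0.286 to 0.316), and the beta cluster 1724, or 0.292 (0.278 to 0.306). The gamma cluster held 2517, or 0.638 (0.614 to 0.664). The level in Pcdhg was 2.12 times that in Pcdha (1.99 to 2.27) and 2.19 times that in Pcdhb (2.06 to 2.33), while Pcdha over Pcdhb was 1.03 (0.962 to 1.105).

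Part of this order was shared by the background. IgG was 0.399 RPM per kb (0.345 to 0.459) in Pcdha, 0.441 (0.388 to 0.499) in Pcdhb and 0.682 (0.602 to 0.771) in Pcdhg. Empty bins moved with it too, with 51 of 260 in Pcdha, 47 of 300 in Pcdhb and 1 of 200 in Pcdhg. Per covered kb, H3KAc was 0.374, 0.346 and 0.642 RPM in the same order.

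Relative to IgG, the beta cluster was lowest. Its ratio was 0.661 (0.579 to 0.758), that of Pcdha 0.753 (0.648 to 0.877) and that of Pcdhg 0.936 (0.823 to 1.07). The ratio in Pcdhg was 1.41 times that in Pcdhb (1.17 to 1.71) and 1.24 times that in Pcdha (1.02 to 1.52). With H3KAc thinned by a random draw to the IgG number the order of Pcdhg and Pcdha turned, at 0.853 (0.710 to 1.03) and 0.868 (0.703 to 1.07). The draw was not repeated, so its own scatter was not measured. Pcdha and Pcdhb did not differ beyond counting error, at 1.14 times (0.929 to 1.40). Of 7265 autosomal windows of 300 kb, 46 (0.633%) had a lower ratio than Pcdhb. Of 8380 windows of 260 kb, 368 (4.39%) had a lower one than Pcdha, and of 10846 windows of 200 kb, 3232 (29.8%) had a lower one than Pcdhg.

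Some settings changed whether an interval included 1. With minus-strand reads alone that of Pcdha reached above 1, at 0.851 (0.682 to 1.07), as it did with the thinned H3KAc reads given above. That of Pcdhg fell below 1 with all deposited reads, at 0.850 (0.793 to 0.912), and with IgG scaled by background windows, at 0.867 (0.763 to 0.989).

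The DNA between the clusters was poorer in H3KAc than the clusters. The 50 kb between Pcdha and Pcdhb had 0.144 RPM per kb (0.121 to 0.170), from 142 reads, and 14 IgG reads. The 100 kb between Pcdhb and Pcdhg had 0.192 (0.173 to 0.213), from 379 reads, and 44 IgG reads. Their ratios were 0.976 (0.563 to 1.83) and 0.829 (0.606 to 1.16), so H3KAc and IgG were both low there.

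**Figure D2:**
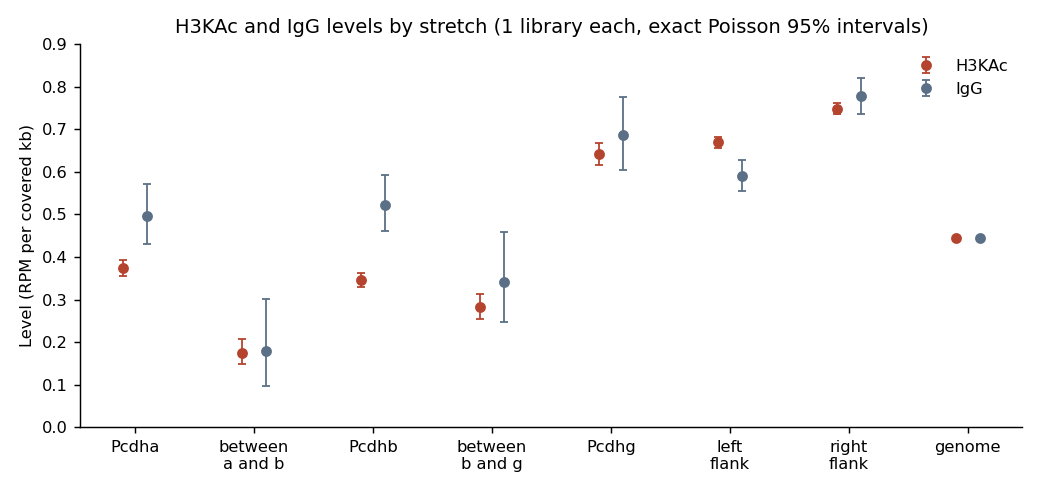
H3KAc and IgG levels in RPM per covered kb (bins with at least 1 read) in each cluster, between clusters, in the 930 kb on each side and over the covered genome. Points are 1 library each and bars exact Poisson 95% intervals. In Pcdha and Pcdhb IgG lies above H3KAc with no overlap of the bars, and in Pcdhg the bars overlap.

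On both sides the level changed outside the chosen stretch. In the 100 kb directly before it, H3KAc in 10-kb windows was between 0.0710 and 0.279 RPM per kb, with a median of 0.205. In the 100 kb farther out the median was 0.741 and the highest window 1.38. H3KAc was thus also low directly before the stretch, in DNA that the rule did not include. This low level did not run on into the start of Pcdha. The 10-kb windows from 37090001, 37100001, 37110001 and 37120001 had 0.477, 0.558, 0.457 and 0.654 RPM per kb. On the right, the nearer 100 kb had a median of 0.454 and the farther 100 kb one of 0.944. IgG was higher farther out on both sides too. Its median was 0.211 RPM per kb in the nearer 100 kb of either side, 0.501 in the farther 100 kb on the left and 1.03 in that on the right.

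To follow the levels along a cluster, each was divided into 4 blocks of equal length. Within the alpha cluster, reads of both libraries were concentrated at the start. Its first block of 65 kb held 574 H3KAc reads, or 0.448 RPM per kb (0.412 to 0.486), and the following blocks 0.249, 0.176 and 0.329. IgG was 0.713 RPM per kb in the first block and 0.300, 0.203 and 0.381 in the others. The ratio in the first block was 0.628 (0.501 to 0.795), so the part richest in H3KAc was also richest in IgG. In the other blocks it was 0.830, 0.870 and 0.862, with intervals that all included 1. In gene order this end of the cluster holds the numbered genes, which were not located here.

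The middle of the alpha cluster held few reads. From 37213001 to 37233000, 20 bins in a row had at most 3 H3KAc reads each, 17 in all, with 2 IgG reads. From 37191001 to 37213000 a run of 22 kb held no IgG read and 31 H3KAc reads. At this depth a run of this kind allows no statement on the ratio. The interval in the first run was 0.194 to 7.30.

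Of the 26 windows of 10 kb in Pcdha, 1 (3.85%) had an interval of the ratio wholly above 1 and 2 (7.69%) wholly below it. Over 238187 covered windows of the autosomes the shares were 5.51% and 6.37%, so Pcdha was near the background in both. The window above 1, from 37320001 to 37330000, held 68 H3KAc reads, or 0.345 RPM per kb, and no IgG read, with a lower bound of 1.73. Its H3KAc level was below the genome average of 0.445, so the window passed through its lack of IgG reads. The windows below 1 started at 37120001 and 37150001, with ratios of 0.591 (0.371 to 0.988) and 0.504 (0.314 to 0.847).

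In the beta cluster both libraries were highest in the last block. Its 4 blocks of 75 kb had 0.272, 0.219, 0.299 and 0.376 RPM per kb. IgG was 0.351, 0.372, 0.372 and 0.667. The ratio was therefore below 1 in each block, and its interval stayed below 1 in the second, at 0.589 (0.439 to 0.803), and in the last, at 0.563 (0.453 to 0.708). Of its 30 windows of 10 kb, 5 (16.7%) had an interval wholly below 1 and 0 had one wholly above it, against 6.37% and 5.51% of autosomal windows. The lowest of these, from 37620001 to 37630000, held 35 H3KAc and 12 IgG reads, a ratio of 0.281 (0.142 to 0.594). The longest run of bins with at most 3 H3KAc reads was 14 kb, from 37547001 to 37561000, with 6 H3KAc reads and 0 IgG reads.

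In the gamma cluster the ratio was higher at its end than at its start. Its 4 blocks of 50 kb had 0.575, 0.559, 0.602 and 0.818 RPM per kb in H3KAc. IgG was highest in the first, at 0.833, and lowest in the last, at 0.580. The ratio was 0.691 (0.545 to 0.886) in the first block, 0.899 and 0.865 in the next ones, and 1.41 (1.07 to 1.89) in the last, from 806 H3KAc and 55 IgG reads. This was the only block of the 3 clusters with a ratio above 1.

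A single bin bore on that value. Without the bin with the most H3KAc reads, the ratio of the last block was 1.27 (0.965 to 1.70). Its interval also included 1 with plus-strand reads, at 1.43 (0.967 to 2.19), with minus-strand reads, at 1.39 (0.9496 to 2.12), with H3KAc thinned to the IgG number, at 1.27 (0.881 to 1.85), and with IgG scaled by background windows, at 1.31 (0.994 to 1.75). With the gamma cluster shortened by 40 kb at each end, which removes most of this block, its ratio fell to 0.797 (0.676 to 0.945).

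The highest 10-kb windows of the whole stretch lay in Pcdhg. The window from 37970001 to 37980000 held 251 H3KAc reads, or 1.27 RPM per kb, and 14 IgG reads, a ratio of 1.73 (1.01 to 3.203). The window before it held 188 and 7 reads, a ratio of 2.59 (1.23 to 6.52). The next in rank, from 37910001 to 37920000, held 167 and 17 reads, a ratio of 0.946 (0.573 to 1.66). The first and second of these lie side by side near the end of the cluster. In gene order the C-type genes are the last of the cluster, and whether these windows hold any of them was not tested.

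**Figure D3:**
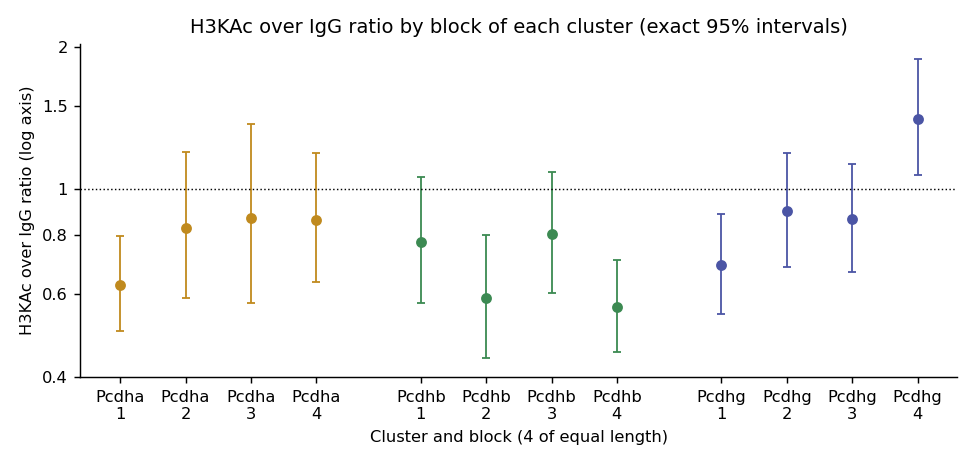
H3KAc over IgG ratio (log axis) in each of the 4 blocks of the 3 clusters. Points are ratios of 1 library each, bars exact conditional 95% intervals, and the dotted line marks the genome average of 1. The last block of Pcdhg lies at 1.41, while the other 11 lie between 0.563 and 0.899.

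Bins with many H3KAc reads in the alpha and beta clusters also had many IgG reads. Bins were classed by their H3KAc reads alone, but the classes were chosen after seeing values. IgG at a given H3KAc count is also not independent of the low ratios of these clusters. The 90th percentile of covered bins in the genome was 19 H3KAc reads and the 99th was 46. Of the bins of Pcdha, 20 (7.69%) had at least 19 reads, of Pcdhb 20 (6.67%) and of Pcdhg 42 (21.0%), empty bins included, against 10.0% of covered bins in the genome.

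In these bins of Pcdha and Pcdhb together, IgG was 2.63 RPM per kb (2.28 to 3.03), from 200 reads in 40 bins. None of the 40 reached 46 H3KAc reads. Bins of the genome between the 90th and 99th percentile had 1.36 RPM per kb (1.361 to 1.368) in IgG, and those of Pcdhg 1.33 (1.08 to 1.63). The mean H3KAc counts were alike, at 28.5 in Pcdha, 28.2 in Pcdhb, 26.2 in Pcdhg and 25.4 in the genome. At a similar H3KAc count, the bins of Pcdha and Pcdhb thus carried about 2 times the IgG level of such bins elsewhere.

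In the lower classes IgG of Pcdha and Pcdhb was closer to the genome value, and it stood above it beyond counting error in the lowest class of Pcdhb. Below the median of 6 H3KAc reads, IgG was 0.149 RPM per kb (0.102 to 0.211) in Pcdha and 0.211 (0.162 to 0.271) in Pcdhb, against 0.157 in the genome. Between the 50th and 90th percentile it was 0.465 (0.360 to 0.590) and 0.596 (0.477 to 0.736), against 0.530. Pcdhg had 0.703 (0.589 to 0.831) in that class, above the genome value. Counting all deposited IgG reads in the 40 high bins gave 2.58 RPM per kb (2.40 to 2.76), against 1.54 in all genome bins with at least 19 H3KAc reads.

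**Figure D4:**
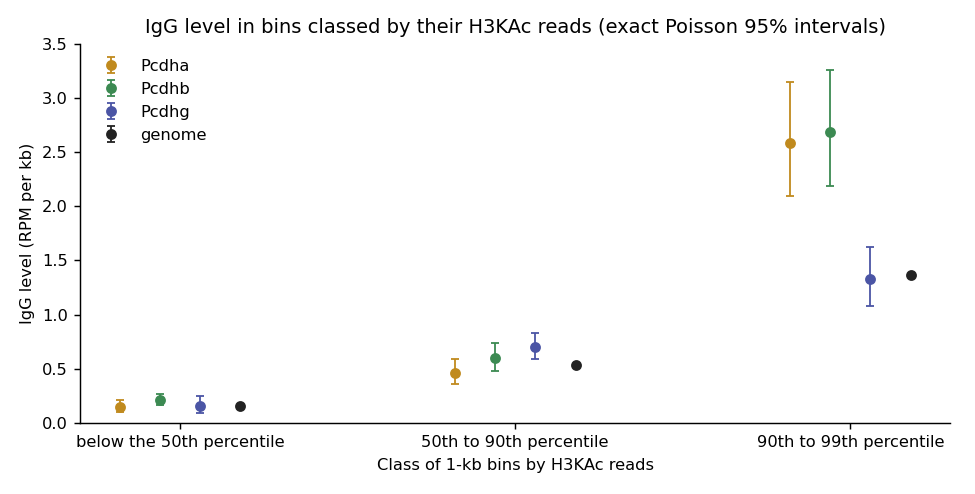
IgG level in RPM per kb in 1-kb bins classed by their number of H3KAc reads, for each cluster and the covered genome. Points are 1 library, bars exact Poisson 95% intervals, and the classes are set by percentiles of H3KAc reads over covered bins of the genome. In the highest class Pcdha and Pcdhb lie at 2.58 and 2.69, Pcdhg at 1.33 and the genome at 1.36.

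The relation of the 2 libraries across 1-kb bins is given as a description. Pearson's r was 0.746 over 260 bins of Pcdha, 0.740 over 300 bins of Pcdhb, 0.459 over 200 bins of Pcdhg and 0.502 over 2246042 covered bins. Spearman's rho was 0.554, 0.548, 0.561 and 0.462, so the order of the clusters by Pearson's r was not that by rank. Bins share the library and, with their neighbours, the local coverage. Bins with no read in either library entered the values of the clusters but not that of the genome, so the clusters are not compared with the genome here.

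By the rule for calling a bin enriched, 1 of 930 bins passed (0.108%), against 0.0524% of all covered bins. The rule asks for a lower bound of the ratio above 2 and for 5 or more reads summed over the libraries, and 472 bins (50.8%) had that many. With no IgG read, a bin needs 79 H3KAc reads to pass, so the low IgG depth sets what can be called. With the lower bound above 1, the count was still 1, against 0.409% of covered bins. Nothing about the clusters is read from a count of 1.

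That bin lay in Pcdhg, from 37966001 to 37967000, 33 kb before the end of the cluster. It held 80 H3KAc reads, or 4.06 RPM (3.22 to 5.05), and no IgG read. The lower bound of the interval of its ratio was 2.04, just past the threshold. The reads were even on the strands, with 40 on each, and 88 deposited reads lay behind the 80 positions. The bins before and after it held 23 and 26 H3KAc reads. With reads not moved along their strand it was no longer called.

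**Figure D5:**
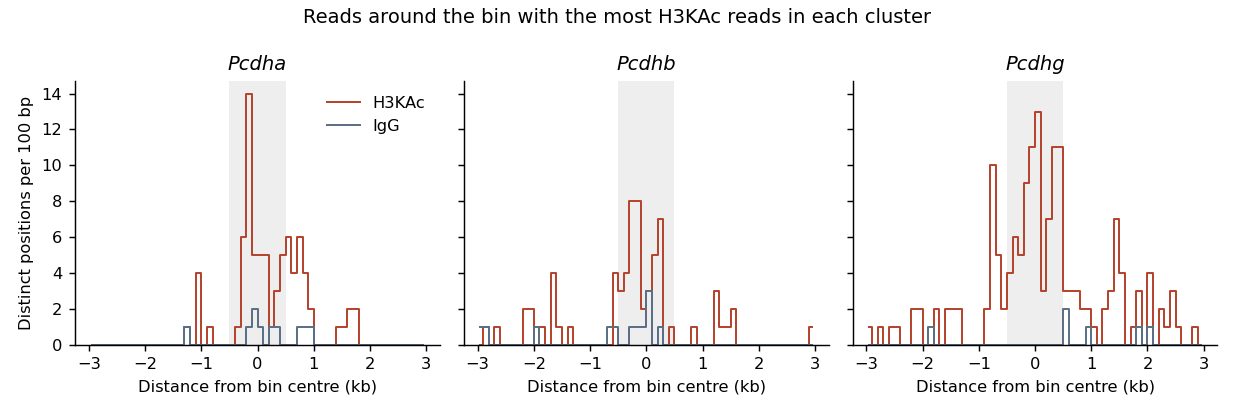
Distinct positions per 100 bp in H3KAc and IgG around the centre of the bin with the most H3KAc reads in each cluster (grey, 1 kb). In each cluster H3KAc reads also lie beyond the bin on both sides. The Pcdhg bin has no IgG read, while IgG reads lie within the bins of Pcdha and Pcdhb.

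The next highest bins of the gamma cluster lay apart from each other. The bin from 37803001 to 37804000, at the start of the cluster as taken here, held 62 H3KAc reads, or 3.15 RPM (2.41 to 4.03), and 5 IgG reads, a ratio of 1.19 (0.485 to 3.81). Since the border is approximate and Taf7 precedes the cluster in gene order, whether this bin belongs to the gamma cluster was not tested. The bin from 37972001 to 37973000 held 48 H3KAc and 2 IgG reads, a ratio of 2.31 (0.606 to 19.6).

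In Pcdha the bin with the most H3KAc reads, from 37121001 to 37122000, held 45, or 2.28 RPM (1.67 to 3.05), and 6 IgG reads, a ratio of 0.722 (0.307 to 2.07). Those from 37166001 and from 37091001 held 39 and 38 H3KAc reads and 4 and 6 IgG reads. Their ratios were 0.939 (0.339 to 3.62) and 0.610 (0.256 to 1.76). All 3 exceeded 98% of covered bins in H3KAc. None had a ratio above 1, but with so few IgG reads each interval included 1.

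In Pcdhb the highest bins started at 37495001, 37639001 and 37681001, with 41, 40 and 36 H3KAc reads. They held 7, 10 and 10 IgG reads, and the ratios of the last pair were 0.385 (0.189 to 0.864) and 0.347 (0.168 to 0.783). Together the 3 bins of Pcdhb held 10.8% of the IgG reads of the cluster and 6.79% of its H3KAc reads. For the 3 bins of Pcdhg the order was the opposite, with 2.70% of IgG and 7.55% of H3KAc reads. Those of Pcdha held 8.12% of IgG and 7.92% of H3KAc reads. These bins were chosen for their H3KAc reads, which raises their H3KAc shares. The IgG shares rest on 16 reads in Pcdha, 27 in Pcdhb and 7 in Pcdhg, so nothing is read from their order. Between the clusters no bin held more than 16 H3KAc reads.

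The rule for bins under-represented in H3KAc, an upper bound of the ratio below 0.5, was met by 4 bins (0.430%), against 0.395% of covered bins. The bins started at 37080001, 37455001, 37633001 and 37849001 and held 17, 5, 5 and 9 H3KAc and 10, 5, 9 and 6 IgG reads. The first, with a ratio of 0.164 (0.0708 to 0.400), was also among the bins with the most IgG reads in the stretch, the others being those from 37114001 in Pcdha and 37639001 in Pcdhb, with 10 each. The share of called bins was near that of the genome in this direction.

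When IgG was averaged over the 11 bins centred on each bin, 9 bins (0.968%) were called enriched, against 1.35% of covered bins. Of these, 3 lay in Pcdha, 2 in Pcdhb, 2 in Pcdhg and 2 between Pcdhb and Pcdhg, and none adjoined another. They included the bins from 37121001 and 37166001 in Pcdha, with 6 and 4 IgG reads of their own. The bins from 37803001 and 37966001 in Pcdhg were also among them. The share in the stretch counts its 142 bins with no read, which cannot be called, while that of the genome does not. No difference from the genome is read from these shares, and no run of 3 or more was called.

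Copies per position in the clusters were close to those of the whole libraries. The stretch had 7073 deposited H3KAc reads, 1.09 per position, against 1.11 over the genome. It had 3310 deposited IgG reads, 4.12 per position, against 4.02. In IgG, copies per position were 4.09 in Pcdha, 3.90 in Pcdhb and 4.39 in Pcdhg.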

How the data were processed

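In the deposited files each row is an aligned read of 35 bases with its position and strand, and no value is normalized. The authors' aligner was Bowtie and the build mm9, per the submitters' processing notes. How multiply aligned reads were handled, and the version, are not stated in these sources. Per the labels' protocols, fragments of about 200 bp were sequenced after PCR.

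Here, reads sharing a 5' end and strand counted as 1 position, moved 100 bp along their strand and assigned to 1-kb bins. Single levels have exact Poisson 95% intervals and ratios exact conditional binomial (Clopper-Pearson) ones. Ratios of 2 H3KAc over IgG ratios have the exact conditional interval of an odds ratio. Copies of a position are not independent molecules, so intervals with all reads may be too narrow. H3KAc gave 8.78 and IgG 0.845 reads per covered bin, so IgG limits the precision.

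The region and lists were chosen with earlier results of these data known. Named bins are the 3 with the most H3KAc reads in each cluster and gap, called bins, runs of called bins, the 3 with the most IgG reads, the 3 highest 10-kb windows and the longest sparse runs. Blocks of equal length, classes by H3KAc reads and other 10-kb windows were chosen after seeing values. Planned lists of regulators and of marker genes needed mm9 gene positions and were not analysed here. The calling was run on simulated independent Poisson counts, the model that the intervals assume. Such counts cannot test for spread beyond that model. Software comprised Python 3.11.15 with pandas 2.3.3, scipy 1.17.1 and numpy 2.4.6, and figures were drawn in matplotlib 3.10.9.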

Additional observations from a re-analysis of the deposited data

How the results depend on the processing

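No replicates exist, so no replicate could be left out. No paired analysis was possible because each group has 1 library. Of 44 ratios recomputed under alternative settings (stretch, 3 clusters and last block of Pcdhg), 42 stayed within the interval of the value reported and none crossed 1 in a direction that had been called. The ratio of the stretch became 0.720 with IgG scaled by background windows, and that of Pcdhg 0.797 when shortened by 40 kb at each end. Of 33 H3KAc levels recomputed for the stretch and the 3 clusters, 23 stayed within the interval of the value reported. Those that left it are given here. With H3KAc thinned to the IgG number, H3KAc levels were 0.368 RPM per kb in the stretch, 0.347 in Pcdha, 0.327 in Pcdhb and 0.582 in Pcdhg. Without the 3 highest bins they were 0.344, 0.280, 0.275 and 0.599. Shortened by 40 kb, Pcdha had 0.239 and Pcdhg 0.564. The 1 enriched bin became 0 with a lower bound above 4, 500-bp bins, reads not moved, thinned H3KAc, either strand alone or background scaling, 8 with all reads and 9 with IgG over 11 bins. The 4 under-represented bins became 11 with 500-bp bins, 50 with all reads, 1 with thinned H3KAc and 2 with plus-strand reads. With 1 strand or thinning fewer reads enter, with 500-bp bins fewer enter each bin, and with all reads copies count as independent. Whether any of this caused the changes in these counts was not tested. Chosen after seeing the data, the 80th percentile of H3KAc in place of the 90th gave 1.87 RPM per kb of IgG in high bins of Pcdha and Pcdhb, against 1.11 in the genome. The last block of Pcdhg kept a ratio between 1.27 and 1.47 under the settings added for it.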

Other observations

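The spacing of bins with at least 19 H3KAc reads is given as a description. In Pcdha the median distance from each such bin to the next was 7 kb, with a longest gap of 68 kb and 5 adjacent pairs among 20 bins. In Pcdhb it was 11 kb, with a longest gap of 55 kb and 2 adjacent pairs among 20 bins. In Pcdhg it was 3 kb, with a longest gap of 38 kb and 16 adjacent pairs among 42 bins. The more such bins a cluster has for its length, the closer they lie. The distances were not set against those that the number of bins alone would give. They describe 1 library, and no test was made of them.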
